A study of Homo sapiens with 6 samples.

Results

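The genes for the proteins of the cytosolic ribosome were compared between FN3K KO and WT HepG2 cells. They were chosen by name: every locus whose gene name is RPL or RPS with a number and at most a paralog letter or digit, RPLP with a digit, or RPSA was taken. This rule found 60 of the 6357 loci in the deposited table, of which 4926 carry a gene name. The large subunit had 35 of these genes and the small subunit 25. Among the 60 were 55 genes of the standard human ribosome and 5 genes for paralog copies of a ribosomal protein, namely RPL7L1, RPL22L1, RPL26L1, RPS27L and RPS4Y1.

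HepG2 cells are an established human line grown from a liver tumour. FN3K, a kinase that removes sugar adducts from proteins, was knocked out in it with CRISPR-Cas, and polyadenylated RNA was sequenced from 3 WT and 3 FN3K KO plates grown in the same medium without further treatment. How many KO clones the plates came from is not given in the sources used here, so a feature of a single clone and an effect of the deletion cannot be told apart. The plates of a group are cultures of 1 cell line, and p-values measure the spread between plates. FN3K was between 21.9 and 27.7 FPKM (fragments scaled to transcript length and to the fragments of the library) in the WT libraries and between 0.704 and 1.03 FPKM in the KO libraries. Of 15 hepatocyte marker genes 11 were listed, and APOA1 (the main protein of high-density lipoprotein), AFP (the fetal serum carrier) and TTR (a thyroid hormone carrier) were among the 6 that were higher in FN3K KO with limma, while HNF4A was lower. None of 12 markers of fibroblasts, blood cells and endothelium was listed by name, a count of 0. Summed over all loci, FPKM lay between 289983 and 314164 in the 6 libraries. The depth of the libraries is unknown because FPKM values hold no read counts.

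A ribosome is built from ribosomal RNA and a fixed set of proteins, nearly all present in a single copy per particle, and the genes of the large and small subunit proteins are scattered over the chromosomes. Their mRNAs are short and very abundant, and most start with a C followed by an unbroken run of C and T (U in the mRNA). This terminal oligopyrimidine tract places their translation and stability under growth signals through mTOR kinase and the RNA-binding protein LARP1. Liver cells make large amounts of secreted protein and carry many ribosomes.

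The first bases of the transcript are therefore shown for members at both ends of the response and for 3 members without the tract. Each sequence runs from 10 bases before the transcript start annotated by RefSeq on GRCh38.p14, 5′ to 3′ on the strand of the gene, over 30 bases in all, and the capitals mark the unbroken run of C and T that begins with a C at the start itself. RPS3A, RPS12, RPSA and RPLP0 were the members with a tract that fell most, RPL38 fell least among the standard genes, RPL22L1 did not pass the test, and RPS26, RPL7L1 and RPS27L have no such tract.
RPS3A, chr4:151099618-151099647, plus strand: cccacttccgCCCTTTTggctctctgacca
RPS12, chr6:132814559-132814588, plus strand: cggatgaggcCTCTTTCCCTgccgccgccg
RPSA, chr3:39406710-39406739, plus strand: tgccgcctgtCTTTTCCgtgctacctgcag
RPLP0, chr12:120201092-120201121, minus strand: ggcgcgaggcCCTTCTCTCgccaggcgtcc
RPL38, chr17:74203668-74203697, plus strand: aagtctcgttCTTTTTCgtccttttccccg
RPL22L1, chr3:170870176-170870205, minus strand: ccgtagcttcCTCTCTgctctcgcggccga
RPS26, chr12:56041908-56041937, plus strand: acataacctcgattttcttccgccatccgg
RPL7L1, chr6:42879606-42879635, plus strand: gtgcggcgccgtagctaggagcggacgcca
RPS27L, chr15:63157458-63157487, minus strand: gatgccgagcgcagatcgcttgcagcttgc

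The ribosomal protein mRNAs were lower in FN3K KO cells almost throughout. Summed over the 60 genes, FPKM was 29648, 30620 and 30554 in WT replicates 1, 2 and 3, and 17109, 17150 and 17464 in KO replicates 1, 2 and 3. Every KO library lay far below every WT library, and the 3 KO sums were close to each other. The share of all FPKM that these genes took fell from between 9.86% and 10.5% in WT to between 5.56% and 5.90% in FN3K KO. In bulk samples, a lower level in every cell and a larger share of cells with a low level cannot be told apart.

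**Figure D1:**
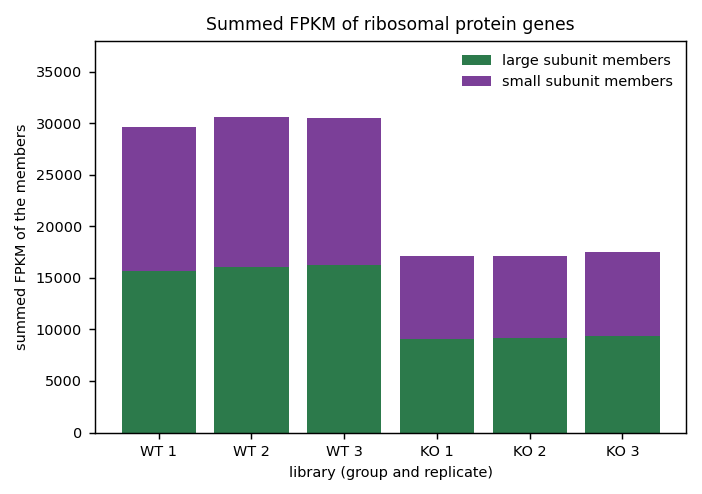
Summed FPKM of the large subunit members (lower block) and the small subunit members (upper block) in each library, on an axis from 0. The 3 WT libraries reach between 29648 and 30620 FPKM and the 3 FN3K KO libraries between 17109 and 17464 FPKM.

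Levels of log2(FPKM + 1) were compared with limma, with Benjamini-Hochberg adjustment of the p-values over all 6357 loci. At an adjusted p under 0.05, 55 of the 60 members were lower in FN3K KO, against 36.5% of all loci. Only RPS26 was higher, where 21.2% of all loci were. RPL7L1, RPL22L1, RPL26L1 and RPS27L did not pass the test, so that 56 members were called in either direction, against 57.7% of loci. The median log2 fold change of the members was -0.77, a fold of 0.586, and their quartiles lay at -0.91 and -0.65. All loci together had a median of -0.14, so that the median member was lower by a further -0.63 on the log2 scale. A linear model with the library adjustment that Ballgown applies took the spread of each gene alone. In it 44 members were lower and 0 higher, where 8.20% of all loci were lower and 9.53% higher.

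All 3 KO libraries lay below all 3 WT libraries for 56 members, as they did for 39.8% of all loci. For RPS26 they lay above, as for 23.6% of all loci. A two-sided exact permutation test on 3 libraries against 3 gives p = 0.1 for each of these genes, the smallest p this design allows. The loci at least as abundant in WT as RPS26, the least abundant of the 55 standard genes, numbered 632 with the members among them. Their median log2 fold change was -0.20, and 49.4% of them were lower.

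Where DEGs were required to differ by more than 1 on the log2 scale at a limma p under 0.05 before adjustment, 5 members were downregulated, namely RPS3A, RPS12, RPSA, RPL9 and RPLP0. Downregulated DEGs made up 3.32% of all loci. No member was an upregulated DEG, a count of 0, against 4.31% of all loci. The fold limit lies inside the range of the members, with RPLP0 at -1.02 just past it and RPL13 at -0.98 just short of it.

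**Figure D2:**
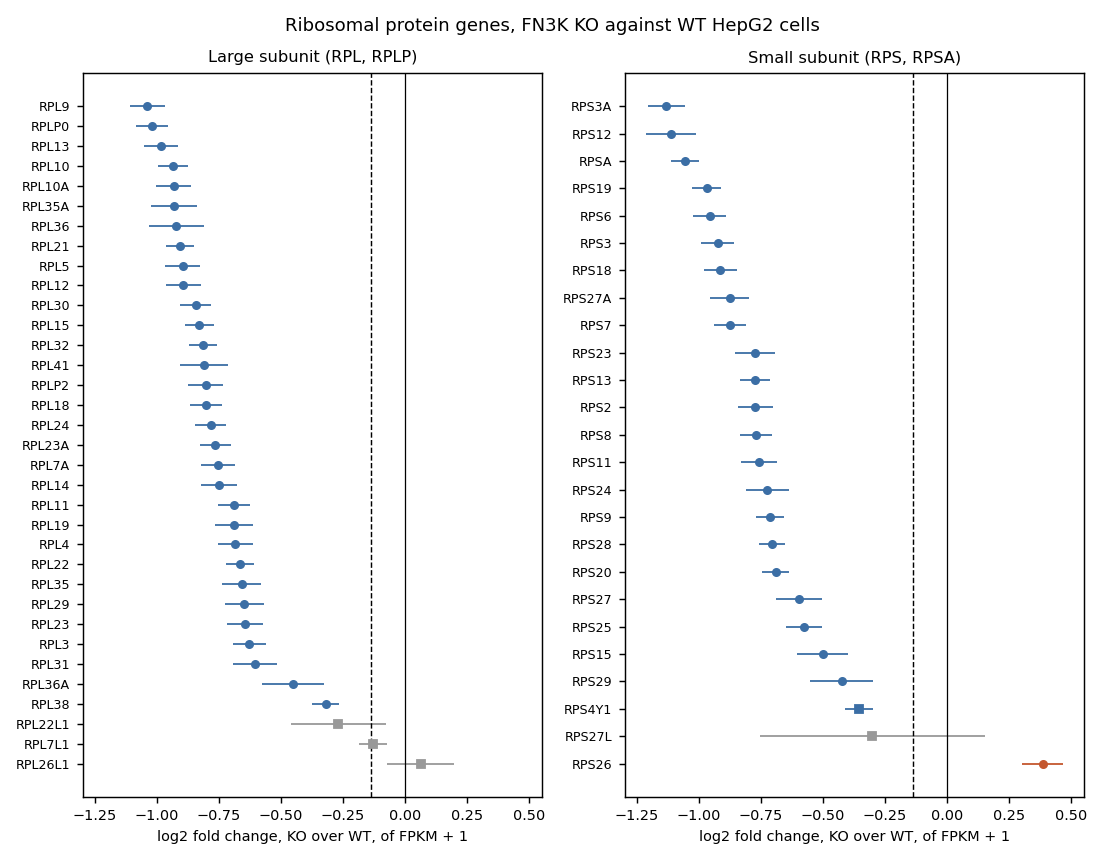
Log2 fold change of FPKM + 1, FN3K KO over WT, for the large subunit and small subunit members, with 1 large subunit member left out and bars of 1 standard error from limma. Circles are standard ribosomal proteins and squares paralog copies, blue is lower and orange higher at an adjusted p under 0.05, grey did not pass, the solid line is 0 and the dashed line the median of all loci at -0.14. All members shown but RPL26L1 and RPS26 lie left of 0.

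The large and small subunits fell by nearly the same amount. Of the 35 large subunit members 32 were lower, and the median was -0.78 on the log2 scale. In the small subunit 23 of 25 were lower and 1 was higher, with a median of -0.77. Of all loci 36.5% were lower and 21.2% higher. Among the standard genes alone, 32 of 32 in the large subunit were lower with a median of -0.80, and 22 of 23 in the small subunit with a median of -0.77. The ratio of summed small subunit FPKM to summed large subunit FPKM was 0.896, 0.907 and 0.885 in the WT libraries and 0.882, 0.878 and 0.864 in the KO libraries. The groups did not overlap in this ratio, but the gap between the lowest WT and the highest KO library was smaller than the SD within either group (0.0110 in WT and 0.00965 in KO, n = 3).

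The order of the members by level was largely kept. Across the 55 standard genes, the log2 of mean FPKM in WT and in FN3K KO correlated with Pearson's r = 0.98 and Spearman's rho = 0.98. Across all 60 members r was 0.99 and rho 0.99. These are descriptions across genes measured in the same libraries. RPS3A was the most abundant member in WT and took 4.92% of the summed FPKM of the members there and 3.94% in FN3K KO. RPL29 was the most abundant in FN3K KO, with 4.07% of the sum in WT and 4.56% in KO. Among the 100 loci with the highest mean, members held 25 places in WT and 18 in FN3K KO, and among the highest 50 they held 12 places in WT and 1 in KO.

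**Figure D3:**
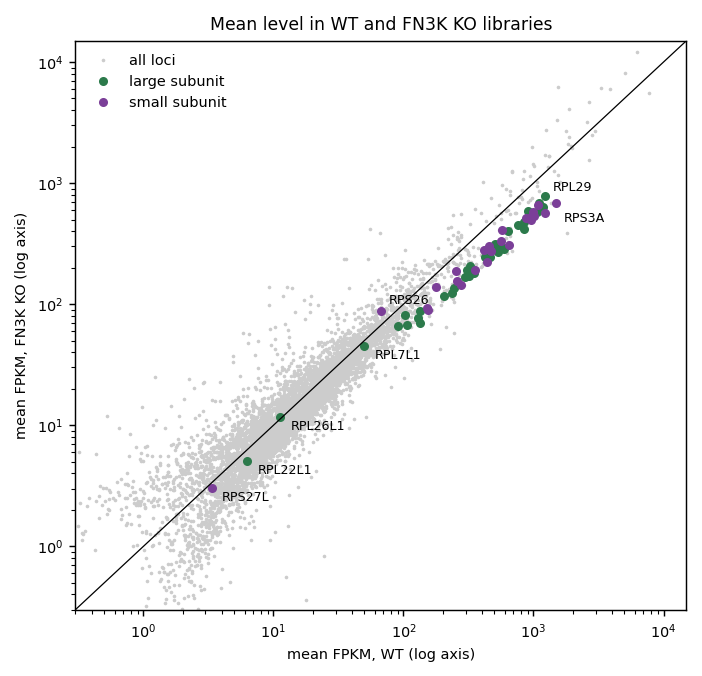
Mean FPKM in the 3 FN3K KO libraries against mean FPKM in the 3 WT libraries, both on log axes, for all loci above the axis limits (grey), large subunit members (green) and small subunit members (purple), with the line of equal levels. The members at high levels lie in a band below the line, while RPS26 lies above it and RPL26L1 on it.

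The lowest fold changes came from small subunit proteins of different roles. RPS3A (chromosome 4 from 151099573 to 151104652, plus strand), which also takes part in translation initiation, had 1537, 1500 and 1432 FPKM in the WT libraries and 692, 655 and 690 in the KO libraries. The groups were separated by a wide margin. This was a log2 fold change of -1.13 (SE, the standard error in limma, 0.07, adjusted p = 5.0e-06). RPS3A overlaps the antisense gene SH3D19, and reads of the pair cannot be told apart without strand, which the sources used here do not state. RPS12 (chromosome 6 from 132814441 to 132817564, plus strand) had 1093, 1298 and 1261 FPKM in WT and 520, 630 and 538 in FN3K KO. The groups were far apart although replicate 2 was the highest in both, and the log2 fold change was -1.11 (SE 0.10, limma adjusted p = 3.1e-05). RPSA (chromosome 3 from 39406689 to 39412542, plus strand), which sits at the site where mRNA leaves the small subunit and also serves as a laminin receptor, had 639, 658 and 638 FPKM in WT. It had 317, 306 and 306 FPKM in FN3K KO, a log2 fold change of -1.06 (SE 0.06, limma adjusted p = 1.7e-06). Its libraries were tight within each group.

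In the large subunit, RPL9 and RPLP0 fell most. RPL9 (chromosome 4 from 39452521 to 39458949, minus strand), a protein at the base of the stalk that overlaps the antisense gene LIAS, had 553, 626 and 602 FPKM in WT and 280, 304 and 280 in FN3K KO. The log2 fold change was -1.04 (SE 0.07, limma adjusted p = 6.0e-06). RPLP0 (chromosome 12 from 120196686 to 120201235, minus strand), which anchors the stalk that recruits elongation factors and whose mRNA is often used as a reference in quantitative PCR, had 822, 859 and 861 FPKM in WT. In FN3K KO it had 426, 419 and 406 FPKM, a log2 fold change of -1.02 (SE 0.06, limma adjusted p = 3.7e-06). Its partner in the stalk, RPLP2, had a log2 fold change of -0.80 (SE 0.07, limma adjusted p = 2.4e-05), and RPLP1 is not listed by name. RPL13 (-0.98) and RPL10 (-0.93) were also among the lowest in the large subunit, and RPS19 (-0.97) and RPS6 (-0.96) in the small.

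**Figure D4:**
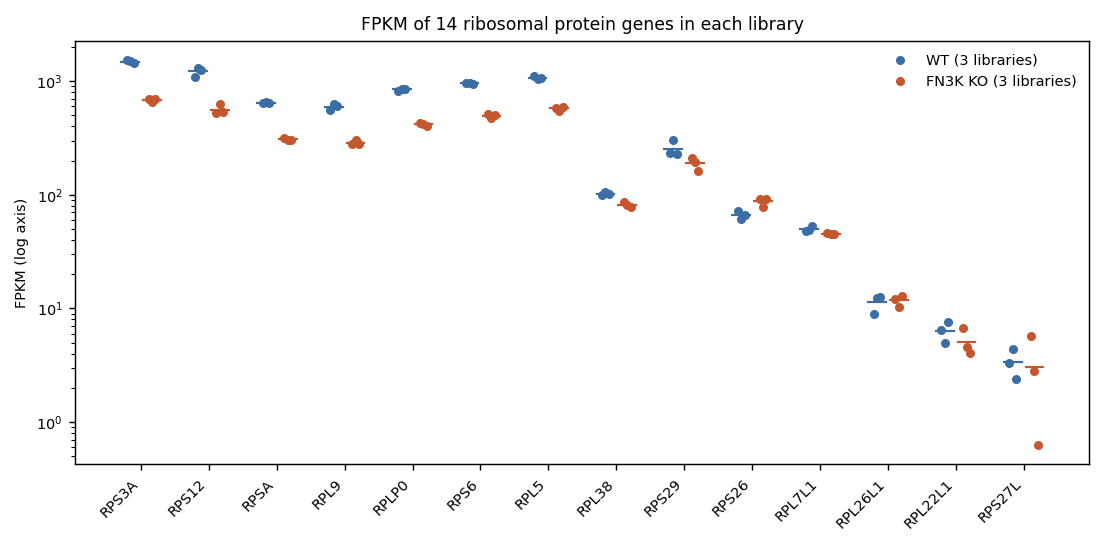
FPKM of 14 members in each of the 3 WT (blue) and 3 FN3K KO (orange) libraries on a log axis, with a bar at the mean of each group. KO points lie below WT points without overlap from RPS3A to RPS29, above them for RPS26 and below for RPL7L1, and the groups overlap for RPL26L1, RPL22L1 and RPS27L.

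The mRNAs of 4 members with known roles in signalling or ubiquitin supply were lower. This was the case for 54 of the 55 standard genes and for 36.5% of all loci. RPL5 and RPL11 form a particle with a small ribosomal RNA that can bind MDM2 and so stabilise p53. RPL5 had 1111, 1039 and 1062 FPKM in WT and 575, 551 and 598 in FN3K KO, with no overlap between the groups, and its log2 fold change was -0.90 (SE 0.07, limma adjusted p = 1.4e-05). RPL11 had 282, 326 and 320 FPKM in WT and 190, 192 and 191 in FN3K KO, a log2 fold change of -0.69 (SE 0.07, limma adjusted p = 4.2e-05). Its KO libraries were nearly equal. RPS6, the small subunit protein that S6 kinases phosphorylate downstream of mTOR, had 967, 967 and 941 FPKM in WT and 509, 471 and 501 in FN3K KO. RPS27A, which is made as a fusion with ubiquitin, had a log2 fold change of -0.88 (SE 0.08, limma adjusted p = 3.1e-05).

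By place on the ribosome, the listed proteins near the peptide exit tunnel and at the site of ribosome collisions were all lower. So were 54 of the 55 standard genes, against 36.5% of all loci. RPL4, which lines the tunnel, had a log2 fold change of -0.68, and RPL17 and RPL39 are not listed by name. Of 5 proteins around the mouth of the tunnel 4 were listed, with log2 fold changes of -0.76 for RPL23A, where signal recognition particle docks, -0.69 for RPL19, -0.66 for RPL35 and -0.60 for RPL31. Of 4 proteins that receive ubiquitin when ribosomes collide 3 were listed, with -0.92 for RPS3, -0.77 for RPS2 and -0.69 for RPS20. Around the mRNA exit of the small subunit, RPSA and RPS28 (-0.71) were lower and RPS26 was higher.

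RPS26 was the exception. RPS26 (chromosome 12 from 56041351 to 56044697, plus strand) contacts the mRNA upstream of the start codon. It had 71.9, 61.5 and 66.3 FPKM in WT and 91.6, 77.8 and 92.6 in FN3K KO, so that the lowest KO library lay above the highest WT library. The log2 fold change was 0.38 (SE 0.08, limma adjusted p = 0.0041). It was the least abundant standard member in WT, with 0.220% of the summed FPKM of the members, and took 0.506% in FN3K KO. Relative to the median standard member of the same library, its log2 level was -2.64, -2.95 and -2.81 in WT and -1.56, -1.80 and -1.57 in KO. Among all loci its fold change was not unusual, at percentile 82.8. With the library adjustment of Ballgown its log2 fold change was 0.19 and its adjusted p 0.35 in a linear model. GENCODE names 30 pseudogenes of RPS26, and whether reads were shared with them was not tested. The neighbouring member on the same strand, RPL41, whose annotated start lies 71.9 kb after the end of RPS26, had a log2 fold change of -0.81 (SE 0.10, limma adjusted p = 0.00015).

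Of the 5 paralog copies 1 was lower and 4 did not pass the test, where 36.5% of all loci were lower. RPL22L1, RPL26L1 and RPS27L had low WT means of 6.31, 11.3 and 3.35 FPKM, with limma standard errors of 0.19, 0.13 and 0.45. RPL7L1, a nucleolar relative of RPL7 that works in ribosome assembly, had 47.8, 49.0 and 52.6 FPKM in WT and 46.3, 44.7 and 45.3 in FN3K KO. The groups did not overlap, but the log2 fold change of -0.13 (SE 0.06, limma adjusted p = 0.074) was close to the median of all loci. RPL26L1 had 8.92, 12.3 and 12.5 FPKM in WT and 12.0, 10.3 and 12.9 in FN3K KO, with overlapping groups and a log2 fold change of 0.06 (SE 0.13, limma adjusted p = 0.71) that turned to -0.03 on a common sum of the other loci. RPS4Y1, the copy of RPS4X on chromosome Y, was lower with a log2 fold change of -0.35 (SE 0.06, limma adjusted p = 0.00083). RPS4X, RPL7 and RPL26 are not listed by name, so these 3 copies could not be set against their parents.

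For 3 of 9 paralog pairs of the list both genes were measured. Their log2 ratio, with 1 FPKM added to each gene, was compared per library with a two-sided exact permutation test. The percentages given here are of FPKM without this addition. RPL22L1, an RNA-binding relative that RPL22 represses, was at 6.41%, 4.43% and 6.95% of the FPKM of RPL22 in WT and at 10.1%, 6.64% and 6.13% in FN3K KO. The groups overlapped, and the log2 ratio was higher by 0.40 in FN3K KO (exact p = 0.2, adjusted p = 0.3 over the 3 pairs), by 0.22 without WT replicate 2 and by 0.21 without KO replicate 1. RPL22L1 itself had a log2 fold change of -0.27, which ran from -0.45 without KO replicate 1 to -0.14 without KO replicate 3. RPL36AL, which lies outside the naming rule, was at 51.2%, 79.6% and 90.4% of RPL36A in WT and at 99.5%, 135% and 103% in FN3K KO. Every KO library lay above every WT library, with a log2 ratio higher by 0.62 (exact p = 0.1, adjusted p = 0.3), and by 0.39 without WT replicate 1. RPL36A was lower (-0.45, SE 0.13, limma adjusted p = 0.014, and 0.051 without WT replicate 1), while RPL36AL had a log2 fold change of 0.17 (SE 0.11, limma adjusted p = 0.22). Exons of RPL36A overlap the annotated gene RPL36A-HNRNPH2 on the same strand. Whether reads were shared there or between RPL36A and RPL36AL was not tested. RPS27L, a target of p53, was at 0.799%, 0.838% and 0.552% of RPS27 in WT and at 1.81%, 0.920% and 0.225% in FN3K KO. The KO libraries of RPS27L lay on both sides of the WT libraries, with 5.72, 2.81 and 0.625 FPKM (exact p = 0.7 and adjusted p = 0.7 for the ratio), and its log2 fold change of -0.30 had a standard error of 0.45. Without KO replicate 3 it was 0.24. At these low levels of RPS27L, the added 1 FPKM moves its log2 ratio away from that of the percentages.

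The standard members with the smallest drop were RPL38 and RPS29. RPL38, which is needed for the translation of Hox mRNAs in embryos, had 99.6, 106 and 102 FPKM in WT and 86.2, 80.6 and 78.7 in FN3K KO. The groups did not overlap, and the log2 fold change was -0.32 (SE 0.06, limma adjusted p = 0.0012). RPS29 had 232, 302 and 230 FPKM in WT and 211, 196 and 161 in FN3K KO, a log2 fold change of -0.43 (SE 0.13, limma adjusted p = 0.018). Its WT replicate 2 stood well above the other libraries, and the gene no longer passed without it (-0.30, limma adjusted p = 0.062) or without KO replicate 3 (-0.31, limma adjusted p = 0.066). RPL36A, RPS15 (-0.50), RPS25 (-0.58), RPS27 (-0.60) and RPL31 came next.

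Some members are mutated in Diamond-Blackfan anaemia, an inherited failure of red cell production. Of 17 such ribosomal protein genes 14 were listed, all of them members, 13 were lower, and RPS26 was higher. This share is near that of the standard genes, of which 54 of 55 were lower, against 36.5% of all loci. RPS19, the gene most often mutated, had 447, 429 and 439 FPKM in WT and 213, 224 and 233 in FN3K KO. The groups were far apart, with a log2 fold change of -0.97 (SE 0.06, limma adjusted p = 3.3e-06).

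Several features that the naming rule did not use were shared by many members. Of 51 members with a promoter entry in RefSeq, 36 (70.6%) had a C at the start followed by 4 bases each C or T, where 5.14% of 27305 genes did. The median log2 fold change was -0.79 for these 36 and -0.68 for the other 15. Among standard genes the medians were -0.80 with the tract and -0.70 without, and 34 of 34 and 11 of 12 were lower. RPL9 fell by 1.04 on the log2 scale without this tract at its annotated start, and RPL38 and RPL22L1 have it with fold changes of -0.32 and -0.27. The ranges with and without the tract overlapped. This count depends on the exact start base that RefSeq annotates. A run of 8 or more C or T within 15 bases of the start was in 40 of the 51 members (78.4%) and 16.5% of all genes. RPL9 and RPS26 have such a run, and RPS3A, which has the tract, does not.

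Other short motifs were less common. The letters CCGGAAG, in either strand of the window from 250 bases before to 50 after the start, were in 31.4% of the members and 12.2% of all genes. AAGATGGC was in 11.8% and 3.52%, and TATAAA in 11.8% and 13.99%. A match gives the presence of these letters only.

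Introns of ribosomal protein genes often hold small nucleolar RNAs (snoRNAs), which guide the modification of ribosomal RNA. GENCODE places at least 1 snoRNA inside 23 of the members, all of them standard genes. All 23 were lower, with log2 fold changes from -1.13 to -0.63 and a median of -0.81. Of the 32 standard genes without a snoRNA 31 were lower, and these 32 ranged from -1.04 to 0.38 with a median of -0.74. Of all loci 36.5% were lower. The standard genes with a snoRNA were also more abundant, with a median WT mean of 529 FPKM against 383 FPKM. RPS3A, RPS12 and RPSA each hold at least 2.

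Fold changes were more negative at higher WT levels. Across the 55 standard genes, the log2 fold change correlated with the log2 mean FPKM in WT with r = -0.51 and rho = -0.34, and without RPS26 with r = -0.41 and rho = -0.30 across 54. WT levels enter both measures, so these are descriptions. With the length of the listed transcript the correlation across the 55 was r = -0.12 and rho = -0.17. The members lie on 20 chromosomes, and those with most, 3 and 19, hold 8 each, with medians of -0.80 and -0.78.

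Related transcripts showed which other groups were as low. FAU, which encodes a standard ribosomal protein as a fusion with a ubiquitin-like protein and falls outside the naming rule, was lower with a log2 fold change of -0.58 in limma. Of 18 mRNAs with a known terminal oligopyrimidine tract that do not encode ribosomal proteins 14 were listed. All 14 were lower, against 36.5% of all loci, with a median of -0.69. Among these, TPT1 (translationally controlled tumour protein) went from 404 ± 21.2 to 205 ± 17.8 FPKM (SD, n = 3), EEF1B2 (an elongation factor subunit) from 636 ± 17.1 to 328 ± 12.5, and EEF2 (the translocation factor) from 1603 ± 75.3 to 1014 ± 32.8. EIF3H (an initiation factor subunit) had the smallest change, with a log2 fold change of -0.37. The list was written with results of these libraries known, so its direction is no independent evidence.

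Leaving out that list, the other ribosomal protein genes and the pseudogenes, 285 named loci that are not members have the tract at their start, and their median log2 fold change was -0.23 with 47.0% lower, against -0.11 and 34.7% for the 3379 without it. At a mean of at least 50 FPKM the 53 loci with the tract had a median of -0.32 and 58.5% were lower, while the 369 without it had a median of -0.04 and 33.6% were lower. No test was made on these shares.

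Mitochondrial ribosomal proteins, which translate the few proteins of the mitochondrial genome, stayed near all loci in their median and their share of lower genes. Of 61 such genes 22 were lower (36.1%, against 36.5% of all loci), and the median was -0.17 against -0.14. Only 4 of the 61 were higher, where 21.2% of all loci were. Of 13 regulators of ribosomal protein mRNAs 7 were listed, of which RHEB, AKT1S1 and EIF4EBP1 of the mTOR pathway were lower (42.9%, against 36.5% of all loci) and none was higher, with a median of -0.21. Of 13 chaperones and import factors for ribosomal proteins 9 were listed, NAP1L1, PDCD2, GRWD1 and AAMP were lower (44.4%), and the median was -0.20, so that both shares were near that of all loci. TSR2, the chaperone that delivers RPS26, had 7.49, 9.59 and 9.19 FPKM in WT and 9.52, 10.4 and 10.0 in FN3K KO, with overlapping groups and a limma adjusted p of 0.17.

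**Figure D5:**
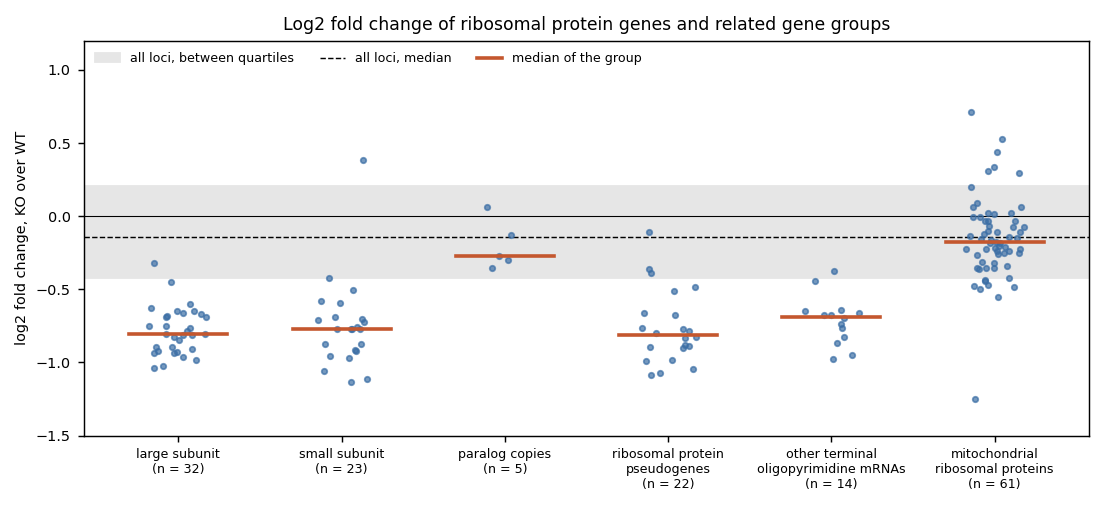
Log2 fold change, FN3K KO over WT, of each gene (points) in 6 groups with the median of each (orange bar), over the range between the quartiles of all loci (grey band) and their median of -0.14 (dashed). Standard large and small subunit genes, pseudogenes and other terminal oligopyrimidine mRNAs have medians between -0.81 and -0.69, and mitochondrial ribosomal proteins have -0.17.

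Processed pseudogenes of ribosomal proteins resemble the parent mRNA, and reads can be placed on either. The table lists 22 of them by name, and 19 were lower, against 36.5% of all loci. Their median log2 fold change was -0.81. RPL15P3 had 159, 162 and 153 FPKM in WT and 75.7, 80.8 and 81.8 in FN3K KO, the highest levels of these pseudogenes. How far the values of members and pseudogenes share reads was not tested.

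The list of members is not the whole ribosome. Of 80 standard ribosomal proteins 57 were listed by name, 55 of them as members, and 23 were not analysed here. Of all 60 members 55 were lower, against 36.5% of all loci. Exons of 29 members overlap another annotated gene, and 28 of these members were lower with a median of -0.77. Among the 31 without such an overlap 27 were lower and RPS26 was higher, with a median of -0.75. In both sets the members that did not pass the test were paralog copies. For 8 members the transcript that names the locus is not of a protein-coding type in GENCODE, and 6 of these were lower.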

How the data were processed

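RNA from 3 WT and 3 FN3K KO plates was captured on oligo(dT). The authors mapped reads with HISAT2, assembled transcripts with StringTie 2.0.6 (GRCh38.p5 per the labels) and deposited FPKM per locus. Strand and the filter on loci are not given in the sources used here. Depth is unknown: among the 300 lowest loci no ratio between 2 libraries (15 pairs) recurred in more than 2 loci.

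From these values, log2(FPKM + 1) was compared with limma 3.58.1 (lmFit, eBayes with a trend; R 4.3.3) over all 6357 loci, with Benjamini-Hochberg adjustment. Fold changes on this scale understate those of low genes. Scripts were tested on simulated data. Single ratios were compared by exact permutation. Python 3.11.15 was used with scipy 1.17.1. Coordinates came from GENCODE version 29 through listed transcripts, and promoter sequences from RefSeq.

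Named genes were members with a known role, paralogs, and the 5 highest and 5 lowest of each subunit, with genes of the lists. A few of these genes are left out of the text and the plot of fold changes. Members and lists were chosen with earlier results of these data known. The alternatives tried were a 0.1 pseudocount, leaving out loci under a mean of 1 FPKM, a common 75th percentile, a common sum of other loci, no trend, the Ballgown library adjustment, a replicate block, and each library left out.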

Additional observations from a re-analysis of the deposited data

How the results depend on the processing

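Of 60 members, 48 kept their call with the library adjustment of Ballgown, which called 44 lower and 0 higher where limma called 55 and 1. That model also took the spread of each gene alone, without eBayes, so more than the adjustment differed. There RPS26 had 0.19 (adjusted p = 0.35), and 11 genes lost a lower call without a common shift in size: RPL36A was at -0.83 in place of -0.45, RPS15 at -0.64 in place of -0.50, RPL38 at -0.31 in place of -0.32 and RPL31 at -0.35 in place of -0.60. Of all loci 521 were lower and 606 higher there. A common sum of the other loci gave 16 downregulated DEGs in place of 5 and medians of -0.88 (large subunit) and -0.86 (small subunit). A common 75th percentile gave 3 such DEGs, and the library adjustment 3 with a small subunit median of -0.68. Over these scalings the median of all loci ran from -0.23 to -0.05. RPL7L1 became lower on the common sum (-0.22, limma adjusted p = 0.028) and without WT replicate 1 (-0.16, limma adjusted p = 0.044), and RPS29 did not pass in limma without the trend (adjusted p = 0.054). The cause was not tested. A pseudocount of 0.1 and a minimum mean of 1 FPKM changed the call of none of the 60, a count of 0.

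With each library left out in turn, 54 to 55 members were lower and 1 to 1 higher, 5 to 7 were downregulated DEGs and 0 upregulated, and the medians stayed between -0.80 and -0.75 (large) and between -0.80 and -0.73 (small). With 1 FPKM added to each gene, the log2 ratio of RPS27L to RPS27 ran from -0.15 to 0.79, the lowest without KO replicate 1. That of RPL22L1 to RPL22 ran from 0.21 to 0.51, and that of RPL36AL to RPL36A from 0.39 to 0.79. RPL26L1 turned to -0.026 on the common sum, and with a library left out it ran from -0.084 (without WT replicate 1) to 0.148, with -0.0049 without KO replicate 3. RPS27L ran from -0.781 to 0.244, the highest without KO replicate 3.

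Replicate numbers are shared between the groups, but same-numbered libraries did not deviate together (correlations of 0.01, 0.006 and 0.046 over all loci). These correlations cannot show whether the plates were grown in matched sets, which the sources used here do not state. With the replicate block, 55 members were lower and 1 higher, and all 60 had the same call. Depth is unknown, and 3 plates of each group limit the precision.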
